A study of Mus musculus with 2 samples.

Results

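The 10 genes described are surface markers by which stromal progenitors of adipose tissue are commonly sorted: Ly6a, Cd34, Dpp4, Pi16, Thy1, Eng, Cd24a, Cd44, Nt5e and Vcam1. They were taken by their symbol from a table of 27324 rows, of which 23361 held a value, and each of the 10 symbols had 1 row with values. RNA-Seq compared 1 library of brown preadipocytes (D0) with 1 library of brown adipocytes (D7), and asked which genes change during adipogenesis of brown preadipocytes. Both libraries came from cells of the interscapular brown adipose tissue of newborn C57BL/6 mice. Per the labels, the cells had stood in differentiation medium with insulin (0.1 μM) and T3 (1 nM) from 4 days before induction, so that the D0 library carries this treatment too. For D7, IBMX (0.5 mM), indomethacin (0.125 mM) and dexamethasone (2 μg/ml) were added at day 0 for 2 days, followed by the same medium without them. The labels call the cells primary cultures, whereas the methods of the study describe immortalization with a large T retrovirus and other amounts of insulin and dexamethasone. Those methods also name insulin and T3 only from day 0 on, so the sources differ on whether the D0 cells had received them. Neither source says that the cells were sorted by any of the 10 markers, or whether cells of several pups were pooled into a library.

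Fat cells arise from fibroblast-like stromal cells, and in the mouse these are usually sorted as cells without blood and endothelial markers that carry Ly6a (Sca-1), Cd34 and the PDGF receptor alpha. Dpp4 and Pi16 mark an early, multipotent group of such cells, Cd24a marks another early fraction, and Thy1, Eng, Cd44 and Nt5e (CD90, CD105, CD44 and CD73) form the usual panel for mesenchymal stromal cells in culture. Several are not particular to stroma: Cd34, Eng and Vcam1 are also carried by endothelial cells, and Cd44 by leukocytes.

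As each stage has a single library, the spread between cultures is unknown and no test could be made. A gene above 0 in both libraries is called higher or lower below where its FPKM (fragments per kb of transcript, scaled to the size of the library) differed by at least 2.0-fold between the libraries. The numbers of fragments behind the values were recovered from the table itself, for which the D0 values were relative to 21471371 fragments and the D7 values to 18265534. Intervals of 95% are exact Poisson intervals for levels and exact Clopper-Pearson intervals for ratios, and cover counting error only. Adipocyte markers followed the labels, with all 11 genes above 0 in both libraries higher at D7, among them Adipoq (0.221 at D0 and 943 at D7). All 20 ribosomal protein genes examined had a ratio of D7 to D0 below 1, from 0.363 to 0.657, and 5 of them were lower by at least 2.0-fold, against a median ratio of 1.01 over all genes above 0 in both. Because of this the members are also given after scaling to those ribosomal genes, chosen after the values were seen, which adds 0.90 to every log2 ratio. Division of each library by its median after a floor of 0.01, an earlier scaling of these data, takes 0.35 from it and moves the share of lower genes among all called genes from 41.7% to 61.9%, and scaling to the ribosomal genes moves it to 8.59%. Over all genes above 0 in both libraries, library-median scaling gave 13.4% higher and 21.7% lower, and ribosomal scaling 46.0% higher and 4.32% lower.

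Of the 10 markers, 4 were lower at D7 (Cd24a, Cd44, Vcam1 and Thy1), 2 were higher (Cd34 and Nt5e) and 4 stayed within 2.0-fold (Ly6a, Eng, Dpp4 and Pi16). Over all 14986 genes above 0 in both libraries, 13.2% were lower and 18.5% were higher, or 31.7% in either direction. Over the 11967 of these with an FPKM of at least 1 in a library, which takes in 8 of the markers, 27.6% were called, 15.6% higher and 11.9% lower. The ratio of D7 to D0 was below 1 in 7 markers and above 1 in 3. The median difference of log2(FPKM + 0.1) was -0.72 over the 10 markers and 0.03 over the 16671 genes above 0 in at least 1 library. A change in bulk RNA does not tell fewer cells that carry a marker from less of its RNA in each cell.

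**Figure D1:**
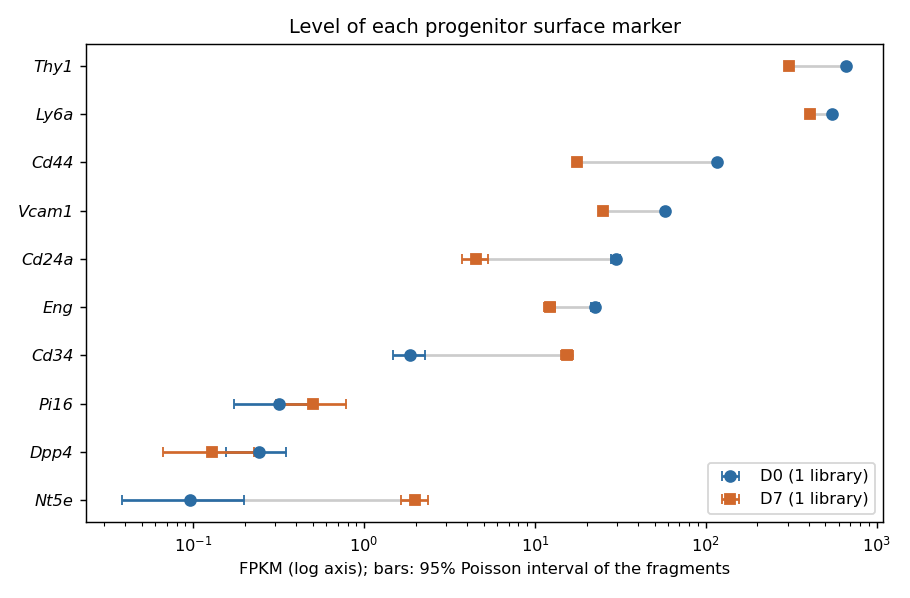
FPKM of the 10 markers (log axis) in the D0 library (circles) and the D7 library (squares), with exact 95% Poisson intervals of the recovered fragments as bars and a grey line joining both values of a gene. Thy1 and Ly6a sit above 300 in both libraries, Cd44 and Cd24a move left by 6.57-fold and 6.61-fold, and Cd34 and Nt5e move right.

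The markers Thy1, Ly6a, Cd24a and Nt5e are held in the outer membrane by a glycosylphosphatidylinositol (GPI) anchor. Thy1, a small immunoglobulin-like protein that binds integrins, had 657 FPKM at D0 and 308 at D7, from 21956 and 8741 fragments. It was the highest of the 10 at D0, where 99.4% of all genes with a value lay below it, and was 2.13-fold lower at D7 (ratio 0.469, 95% interval 0.457 to 0.480). Thy1 (ENSMUSG00000032011.5) lies on chromosome 9, 44043384 to 44048579, on the plus strand of mm10. After scaling to the ribosomal genes its ratio was 0.873, within 2.0-fold.

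Ly6a, the Sca-1 antigen, had 546 FPKM at D0 and 405 at D7, from 9096 and 5714 fragments. Its ratio of 0.741 (0.714 to 0.763) was the nearest to 1 of the 10 by size of fold, and 29.2% of all genes above 0 in both libraries had a lower ratio. With ribosomal scaling the ratio turned to 1.38. Ly6a (ENSMUSG00000075602.10, chromosome 15, 74994877 to 74998031, minus strand) belongs to a family of genes with partly shared sequence. Of 866 windows of 90 bases along its transcript, 245 (28.3%) matched the transcript of another gene, such as Ly6c1, Ly6c2 or Ly6i, with at most 5 mismatches, so that its value may hold reads of these genes or lack its own.

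Cd24a, a short, heavily glycosylated protein and a ligand of the receptor Siglecg, had 29.7 FPKM at D0 (95% interval 27.9 to 31.5) and 4.49 at D7 (3.76 to 5.32). The 1043 fragments at D0 and 134 at D7 give a ratio of 0.151 (0.125 to 0.181), or 6.61-fold lower. Only 1.55% of all genes above 0 in both had a lower ratio, and the ratio was 0.119 and 0.282 under the library-median and ribosomal scalings. Its gene (ENSMUSG00000047139.9) is on chromosome 10, 43578284 to 43584265, plus strand, and 106 of 1727 windows (6.14%) matched the genes Gm6212 and Gm15352.

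Nt5e, the ecto-5′-nucleotidase that forms adenosine from AMP outside the cell, had an FPKM of 0.0959 at D0 from 7 fragments and 1.98 at D7 from 123 fragments. It was the lowest of the 10 at D0 and passed Pi16 and Dpp4 at D7. The ratio of 20.7 has an interval from 9.73 to 52.5, and 1.68% of all genes above 0 in both had a higher one. As so few fragments stand behind the D0 value, a pseudocount of 1 brought the ratio to 2.72, still past 2.0-fold. Nt5e (ENSMUSG00000032420.8) lies on chromosome 9, 88327197 to 88372092, plus strand.

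Cd44, Vcam1 and Cd34 cross the membrane and bind other cells or matrix. Cd44, the main receptor of hyaluronan, had 116 FPKM at D0 (114 to 118) and 17.7 at D7 (16.9 to 18.5), from 13562 and 1755 fragments. Its ratio of 0.152 (0.145 to 0.160) overlaps in interval with that of Cd24a. The ratio was 0.119 to 0.160 under the other scalings and pseudocounts tried and 0.284 with ribosomal scaling. Cd44 is ENSMUSG00000005087.17 on chromosome 2, 102811141 to 102901665, minus strand.

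Vcam1, which binds integrins with the alpha 4 chain, had 57.7 FPKM at D0 and 24.96 at D7, from 3989 and 1466 fragments. It was 2.31-fold lower at D7 (ratio 0.432, 0.407 to 0.459), and 9.96% of all genes above 0 in both had a lower ratio. With ribosomal scaling the ratio was 0.805. The gene (ENSMUSG00000027962.14) lies on chromosome 3, 116109949 to 116129688, minus strand, and its first part is also spanned by the antisense gene Gm43109.

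Cd34, a sialomucin of progenitor and endothelial cells, went the other way, with 1.85 FPKM at D0 (1.48 to 2.27) and 15.4 at D7 (14.2 to 16.6). The 90 fragments at D0 and 637 at D7 give a ratio of 8.29 (6.66 to 10.5). Over all genes above 0 in both, 3.70% had a higher ratio. Under all scalings and pseudocounts tried it stayed between 5.73 and 15.4. Cd34 (ENSMUSG00000016494.9) lies on chromosome 1, 194938819 to 194961279, plus strand. Its deposited locus runs 15680 bp past this end and also spans Gm16897 on the opposite strand (FPKM 0.121 at D0 and 0.237 at D7) and A330023F24Rik on the same strand (0.102 and 0.437). Both genes are listed at a small part of the level of Cd34.

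Eng, or endoglin, a co-receptor that binds ligands of the TGF-beta family, had 22.4 FPKM at D0 (21.2 to 23.6) and 12.2 at D7 (11.2 to 13.2). With 1365 and 631 fragments its ratio of 0.544 has an interval from 0.494 to 0.598, which reaches just past the limit of 0.5. Library-median scaling brought it to 0.426, among the lower genes, and ribosomal scaling to 1.01. Eng (ENSMUSG00000026814.16) lies on chromosome 2, 32646595 to 32682669, plus strand. Its deposited locus extends 11506 bp further across Fpgs on the opposite strand, which was itself lower at D7 (11.6 at D0 and 4.76 at D7), and the sources used here do not state whether strand was used in counting.

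The pair that marks the early multipotent group was close to the lower end of detection. Dpp4 (CD26), a serine protease of the cell surface that trims peptides such as the chemokine Cxcl12, had 0.242 FPKM at D0 and 0.129 at D7, from about 26 and 12 fragments. Its ratio of 0.535 has an interval from 0.249 to 1.11. Pi16, a secreted or membrane-held member of the CAP family, had 0.316 FPKM at D0 and 0.504 at D7, from 14 and 19 fragments, with a ratio of 1.60 (0.758 to 3.44). Both intervals include 1, so a difference was not detectable at this depth for either gene. Dpp4 passed the limit with library-median scaling (ratio 0.419), and Pi16 with ribosomal scaling (ratio 2.98). Dpp4 (ENSMUSG00000035000.8) is on chromosome 2, 62330073 to 62412231, minus strand, and Pi16 (ENSMUSG00000024011.17) on chromosome 17, 29317680 to 29330593, plus strand. An antisense gene overlaps each of them, Gm13561 and AC162182.1.

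**Figure D2:**
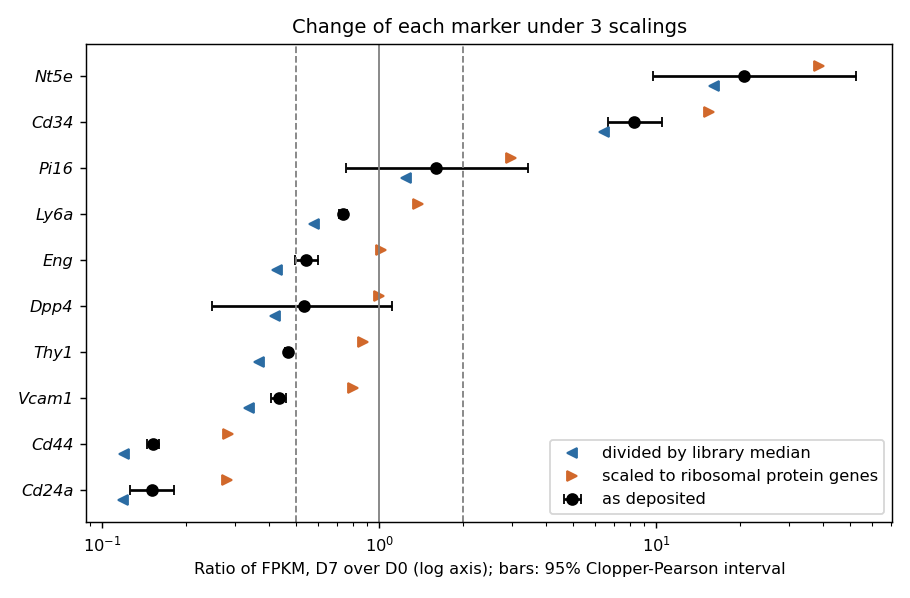
Ratio of FPKM, D7 over D0, for each marker (log axis) as deposited (black circles, with exact 95% Clopper-Pearson intervals as bars), after division by the library median with a floor of 0.01 (blue triangles) and after scaling to 20 ribosomal protein genes (orange triangles). Dashed lines mark 0.5 and 2.0. Cd34 and Nt5e stay right of 2.0 and Cd44 and Cd24a left of 0.5 under all 3, while Thy1 and Vcam1 pass the limit of 0.5 as deposited and not with ribosomal scaling.

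**Figure D3:**
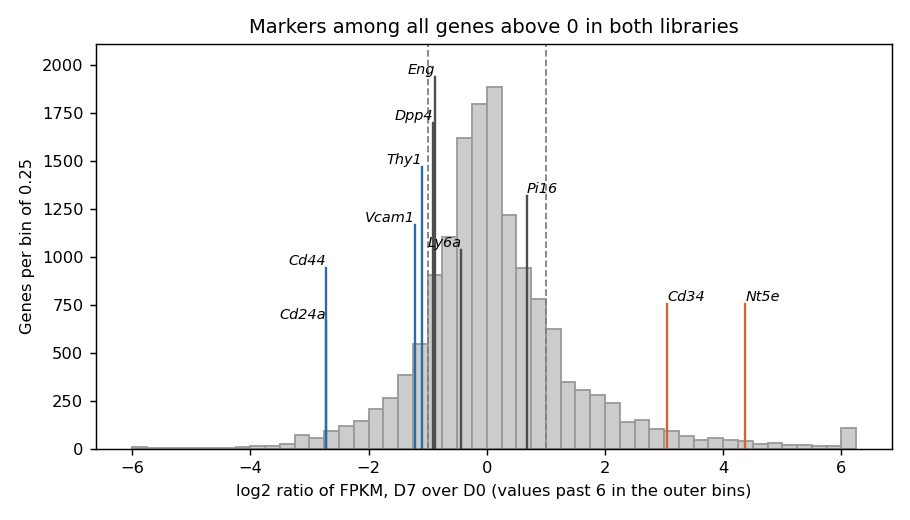
Number of genes in each bin of 0.25 of the log2 ratio of FPKM, D7 over D0, over the 14986 genes above 0 in both libraries (grey), with values past 6 gathered in the outer bins and dashed lines at 2.0-fold. Vertical lines of arbitrary height place the 10 markers: Cd24a and Cd44 lie in the lower tail, Cd34 and Nt5e in the upper tail, and the others within the bulk.

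The markers covered a wide range of levels, and FPKM is per kb, so that levels of different genes can be set side by side. At D0 the highest was 6856 times the lowest, and at D7 3131 times. In falling order the D0 levels were Thy1, Ly6a, Cd44, Vcam1, Cd24a, Eng, Cd34, Pi16, Dpp4 and Nt5e. Counting intervals of neighbours in this order did not overlap, except those of Pi16 with Dpp4 and of Dpp4 with Nt5e. At D7 the order was Ly6a, Thy1, Vcam1, Cd44, Cd34, Eng, Cd24a, Nt5e, Pi16 and Dpp4, with all neighbours apart, although Cd44 (from 16.9) and Cd34 (up to 16.6) nearly met. No replicate gives the spread between cultures, so these orders hold for the 2 libraries only.

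The sum of the 10 levels was 1432 at D0 and 790 at D7, or 0.280% and 0.151% of all FPKM in the library. Thy1 and Ly6a together made up 84.0% of this sum at D0 and 90.2% at D7. Within a library, quotients between markers do not depend on its scaling. Thy1 stood at 1.20 times Ly6a at D0 and 0.761 times at D7. Cd44 stood at 62.7 times Cd34 at D0 and 1.15 times at D7, and Cd24a at 16.01 times and 0.292 times Cd34. Eng was 12.1 times Cd34 at D0 and 0.792 times at D7. The number of markers with an FPKM of at least 1 was 7 at D0 and 8 at D7, Nt5e being the one that was added.

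Of the 10 markers, 6 had a promoter (250 bases before to 50 after the start) in the RefSeq sequence table of GRCm38.p6, and for each of these the start equals that in the deposited table. The GENCODE spans given above begin further upstream for Nt5e (88327197) and Pi16 (29317680). The Nt5e window below therefore lies inside the span given for that gene. The promoters of Cd34 and Nt5e, the markers higher at D7, and of Cd44, which was 6.57-fold lower, are shown so that their composition can be set beside their values. Cd34 is at chr1:194938571-194938870 (plus strand), Nt5e at chr9:88327359-88327658 (plus strand) and Cd44 at chr2:102901616-102901915 (minus strand), each printed 5′ to 3′ along the gene. Capitals mark matches on either strand to CACCC, a core that factors of the KLF family bind, and to GGGCGG, the GC box of the Sp family. On the strand printed these also appear as GGGTG and CCGCCC, and neighbouring GC boxes in Nt5e share bases.
Cd34: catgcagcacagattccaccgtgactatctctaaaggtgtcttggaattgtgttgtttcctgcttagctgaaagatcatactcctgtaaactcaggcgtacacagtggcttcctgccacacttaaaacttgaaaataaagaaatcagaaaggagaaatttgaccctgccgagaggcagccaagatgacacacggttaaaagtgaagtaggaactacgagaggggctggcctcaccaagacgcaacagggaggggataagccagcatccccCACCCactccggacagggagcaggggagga
Nt5e: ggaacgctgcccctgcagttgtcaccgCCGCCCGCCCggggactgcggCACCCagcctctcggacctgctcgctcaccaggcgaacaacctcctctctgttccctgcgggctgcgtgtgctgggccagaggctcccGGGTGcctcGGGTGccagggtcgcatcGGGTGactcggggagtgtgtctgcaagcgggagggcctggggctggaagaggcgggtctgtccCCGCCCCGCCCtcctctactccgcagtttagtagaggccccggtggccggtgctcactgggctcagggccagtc
Cd44: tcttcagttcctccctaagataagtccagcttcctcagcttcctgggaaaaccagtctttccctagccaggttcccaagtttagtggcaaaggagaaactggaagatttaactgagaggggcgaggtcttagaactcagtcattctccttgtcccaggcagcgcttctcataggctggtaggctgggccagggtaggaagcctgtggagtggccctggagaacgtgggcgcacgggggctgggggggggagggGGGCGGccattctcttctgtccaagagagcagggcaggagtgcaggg
Cd34 held 1 CACCC match, which begins 20 bases after the start site, and no GC box. Nt5e held 4 CACCC matches, all before the start site, and 4 GC boxes, also before it. Cd44 held 1 GC box, just after the start, and no CACCC. Other windows with a CACCC were those of Dpp4 (1), Pi16 (1) and Eng (4). Such matches are common: 57.5% of 32817 promoters of the same length held a CACCC and 35.6% a GC box. Guanine and cytosine made up 50% of the Cd34 window, 58% of that of Cd44 and 71% of that of Nt5e, against a median of 52.7% over all promoters. The Nt5e window also held 23 CG pairs, where the median is 7. The letters CCAAT (37.4% of promoters) were in the window of Pi16 and TATAAA (13.6%) in that of Dpp4. None of the 6 windows held the AP-1 motif TGANTCA (7.81%) or the NF-kappaB motif (8.46%). A match describes these letters and is no evidence of binding.

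The partners of each marker were taken from lists of genes that bind it, act on it or belong to its family. Of the Ly6 family, 12 genes besides Ly6a were above 0 in both libraries, with 2 higher and 3 lower, beside 18.5% and 13.2% over all such genes. The higher ones rest on few fragments at D0 and D7, Ly6k on 1 and 3 and Lypd6b on 1 and 15. Of the lower ones Ly6i had 3 and 1 fragments, Lypd1 441 and 182, and Plaur 563 and 43. Plaur, the anchored receptor of urokinase, had 21.6 FPKM at D0 and 1.94 at D7 (ratio 0.0900, 0.0643 to 0.123). Ly6h was at 0 at D0 and at 4.66 FPKM at D7, at least 36.1-fold above the limit of 3 fragments. Ly6c1, which shares windows with Ly6a, had 99.8 FPKM at D0 and 94.2 at D7, with a ratio of 0.944 (0.868 to 1.02). Ly6e was at 0.686 of its D0 value, on the same side as Ly6a, and both were above 1 with ribosomal scaling.

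The enzymes that build and attach the GPI anchor, which Thy1, Ly6a, Cd24a and Nt5e share, were mostly within 2.0-fold: 24 of 25 were, with a median log2 difference of -0.16. As deposited, 31.7% of all genes above 0 in both were called in either direction. With ribosomal scaling all 25 ratios were above 1 and 7 genes were higher, where 46.0% of all genes above 0 in both were higher. The exception was Pigq, a subunit of the complex of the first step, at 12.4 FPKM at D0 and 34.4 at D7 (ratio 2.78). The 4 anchored markers spanned ratios from 0.151 to 20.7.

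The genes around Cd44 were mostly lower as well. Of 16 genes of the hyaluronan axis, 9 were lower, 2 were higher and 5 were within 2.0-fold. Over all genes above 0 in both, 13.2% were lower and 18.5% higher. The median log2 difference of the axis was -1.23, beside 0.03 over all genes. With ribosomal scaling 5 were lower and 4 higher, beside 4.32% and 46.0% over all genes above 0 in both. Has2, the main hyaluronan synthase of fibroblasts, had 9.38 FPKM at D0 and 0.512 at D7 (ratio 0.0546, 0.0384 to 0.0756). The antisense gene Has2os lies in its locus. Tmem2, a hyaluronidase of the cell surface, was at 0.190 of its D0 value, and Vcan, a proteoglycan that binds hyaluronan, at 0.242. Spp1, or osteopontin, another Cd44 ligand, had 357 FPKM at D0 and 126 at D7. Msn, or moesin, which links Cd44 to actin, had 286 FPKM at D0 and 110 at D7, whereas Rdx, or radixin, of the same family had 26.2 and 42.1. Hyal1, a lysosomal hyaluronidase, had a ratio of 1.42. The 2 higher genes, Has3 and Lyve1, had an FPKM under 1 in both libraries.

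Among the 11 integrin and other partners of Vcam1 and Thy1, 3 were higher, 3 were lower and 4 within 2.0-fold, and 1 was listed at 0 at D0. Over all genes above 0 in both, 18.5% were higher and 13.2% lower. With ribosomal scaling 4 were higher and 2 lower, beside 46.0% and 4.32% over all such genes. Itgb3, a chain of the integrin that binds Thy1, had 7.91 FPKM at D0 and 1.64 at D7 (ratio 0.208, 0.175 to 0.245). Its partner chain Itgav had 63.0 and 19.7. Itgb1, the beta chain shared by Vcam1-binding integrins, had 451 FPKM at D0 and 299 at D7, within 2.0-fold. Itga4, the alpha chain of the main Vcam1 receptor, had 0.203 FPKM at D0 and 0.420 at D7. The other 2 genes higher as deposited, Itgam and Itgb2, are chains of a leukocyte integrin, with 4.07 and 4.82 FPKM at D7.

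Around Eng, all 8 ligands and receptors above 0 were within 2.0-fold, with a median log2 difference of -0.19. Over all genes above 0 in both, 31.7% were called in either direction. The ligands for which Eng has high affinity, Gdf2 and Bmp10, were listed at 0 in both libraries. Acvrl1, the type I receptor with which Eng acts, had 24.5 FPKM at D0 and 17.5 at D7. Tgfbr1, Tgfbr2 and Tgfbr3, receptors of TGF-beta, had ratios of 1.51, 1.35 and 1.28, opposite to Eng as deposited, while the ligands Tgfb1 and Tgfb3 had ratios of 0.587 and 0.700. With ribosomal scaling all 8 ratios were above 1.

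Of 13 genes of the adenosine axis to which Nt5e belongs, 2 were higher and 4 lower. Over all genes above 0 in both, 18.5% were higher and 13.2% lower. Of the rest of the axis, 6 genes were within 2.0-fold and 1 was listed at 0 at D0. That gene was the receptor Adora1, with an FPKM of 25.1 at D7 from 2196 fragments, at least 861-fold above the limit of 3 fragments at D0. Its deposited locus also spans Mybph on the opposite strand. The receptor Adora2b had 10.3 FPKM at D0 and 1.02 at D7 (ratio 0.0989, 0.0661 to 0.143). Adora3 had 5.19 and 0.280, from 80 and 4 fragments, but its locus overlaps another annotated gene of the same name. Upstream of Nt5e, Entpd2, which takes ATP to ADP, was higher at 2.17 and 7.27 (ratio 3.35, 2.59 to 4.35), in a locus shared with Npdc1. Enpp1, which forms AMP from ATP, was lower at 2.51 and 0.486. Ada, which removes adenosine, had a ratio of 0.479, and the kinase Adk and the carrier Slc29a1 had ratios of 1.16 and 1.17. With ribosomal scaling 6 genes of the axis were higher and 3 lower, beside 46.0% and 4.32% over all genes above 0 in both.

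Of the relatives of Cd34 and the selectins, for which Cd34 can be a ligand, Podxl2 had 4.02 FPKM at D0 and 5.69 at D7, whereas Podxl, the nearest relative, was under 0.1 in both. In the same list Siglecg, a receptor of Cd24a on leukocytes, had 9.17 FPKM at D0 and 1.33 at D7, with a ratio of 0.145 (0.108 to 0.192) beside 0.151 for Cd24a. Whether the changes of Siglecg and Cd24a are linked was not tested.

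In the family of Dpp4 and its partners 4 of 9 genes above 0 in both were lower and 5 were within 2.0-fold. As deposited, 13.2% of all such genes were lower and 18.5% higher. Fap, the nearest relative of Dpp4 and a marker of activated fibroblasts, had 1.74 FPKM at D0 and 0.675 at D7, and Prep, a cytosolic prolyl peptidase, had 44.4 and 21.1. Cxcl12, a chemokine that Dpp4 cleaves, had 282 FPKM at D0 and 78.1 at D7 (ratio 0.277, 0.264 to 0.289). Dpp8 and Dpp9, the cytosolic members, had ratios of 1.06 and 0.907. The 4 lower genes were within 2.0-fold with ribosomal scaling, under which 4.32% of all genes above 0 in both were lower. Of the CAP family of Pi16, 5 of 9 genes were listed at 0 in both libraries. Glipr2, a member bound to the Golgi apparatus, had 151 FPKM at D0 and 21.99 at D7 (ratio 0.146), and the other 3 had ratios of 0.510 to 0.618.

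**Figure D4:**
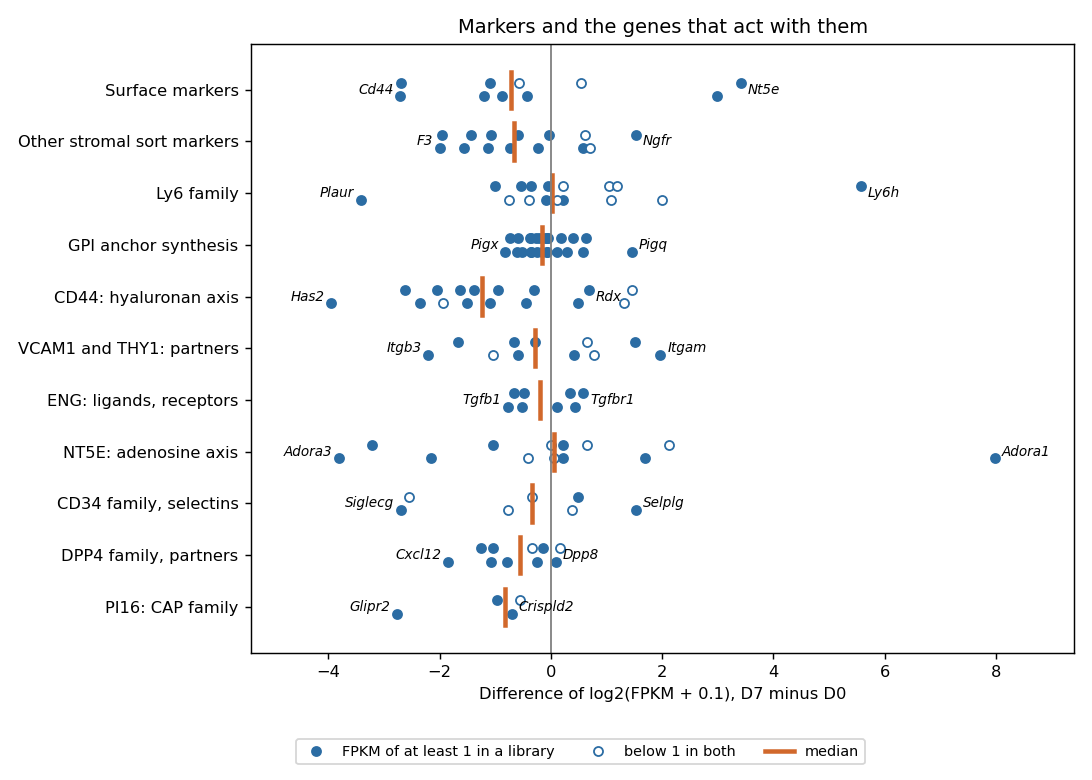
Difference of log2(FPKM + 0.1), D7 minus D0, for the 10 markers and for the genes that act with them, with 1 point per gene above 0 in at least 1 library (filled where FPKM reached 1 in a library, open where it was below 1 in both) and an orange bar at the median. The median of the hyaluronan axis is -1.23 and that of GPI anchor synthesis -0.16, and Adora1, listed at 0 at D0, lies farthest to the right.

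Of 14 other markers by which stromal cells are sorted, 6 were lower, 2 were higher and 6 were within 2.0-fold. As deposited, 13.2% of all genes above 0 in both were lower and 18.5% higher. The median log2 difference of the 14 was -0.66. With ribosomal scaling 2 were lower and 4 higher, beside 4.32% and 46.0% over all genes above 0 in both. Pdgfra, the receptor most often paired with Ly6a in sorting, had 52.1 FPKM at D0 and 50.7 at D7, with a ratio of 0.973 (0.940 to 1.01). Pdgfrb, the other PDGF receptor, had 114 and 38.9, a ratio of 0.340. F3 (CD142), a marker of a stromal group described as restraining adipogenesis, had 834 and 210, a ratio of 0.251 (0.244 to 0.258), and Itga5 had a ratio of 0.257. Ngfr, the low-affinity neurotrophin receptor, was higher at 3.52 and 10.4.

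Dpp4 and Pi16 are part of a larger signature, whose other genes did not share a direction. Of 10 further markers of the DPP4-positive group, 3 were higher, 1 was lower, 5 were within 2.0-fold and 1 was listed at 0 at D0. Over all genes above 0 in both, 18.5% were higher and 13.2% lower. Of the higher ones Efhd1 rests on 3 and 6 fragments, Wnt2 on 23 and 48 and Limch1 on 154 and 286. The gene at 0 at D0, Bmp7, had 1 fragment at D7. The median log2 difference over the 10 was 0.0038, while the median ratio over the 9 above 0 in both was 0.869. Anxa3 was lower, at 111 and 51.3, and Cd248 had 213 and 107, a ratio of 0.503 just inside the limit. Wnt2 was higher, at 0.553 and 1.36. Mfap5, a microfibril protein, had 78.01 and 90.2. In library-median scaling 4 of the 9 were lower and 0 higher, beside 21.7% and 13.4% over all genes above 0 in both.

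Of 9 markers of committed preadipocytes, 7 were higher, beside 18.5% of all genes above 0 in both. Some of these 9, among them Fabp4, Lpl, Pparg and Col4a1, are also genes of fat cells or of their basement membrane. Dlk1, a transmembrane protein of preadipocytes, had 3.57 FPKM at D0 and 38.5 at D7 (ratio 10.8, 8.87 to 13.1), in the range of Cd34. Aoc3, an amine oxidase of the cell surface, had 17.5 and 139. Icam1, which is used to sort such cells, was lower at 18.4 and 8.39. In the group around F3 (CD142), 4 of 8 genes were higher, beside the same 18.5%, while F3 itself was lower. The higher ones were Abcg1 (0.842 and 3.41), Fmo2 (0.811 and 92.3), Mgp (300 and 882.5) and Vit. The value of Vit rests on 5 fragments at D0 and 11 at D7, and the interval of its ratio (0.828 to 9.49) includes 1.

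**Figure D5:**
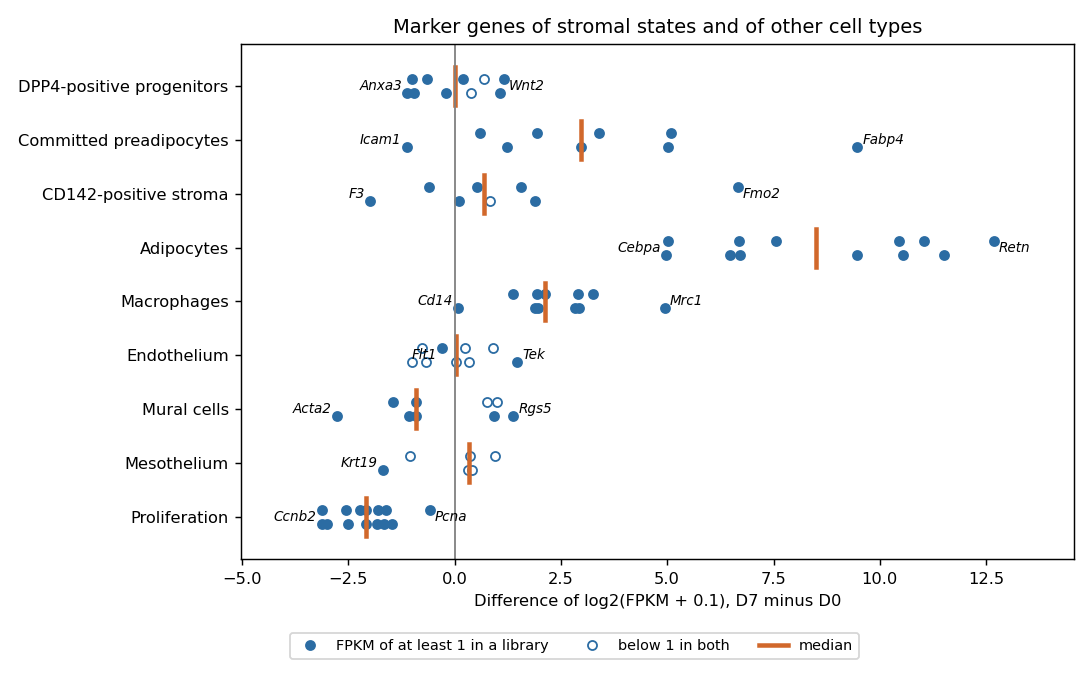
Difference of log2(FPKM + 0.1), D7 minus D0, for genes of stromal states, of other cell types and of proliferation, with 1 point per gene above 0 in at least 1 library (filled where FPKM reached 1 in a library, open where it was below 1 in both) and an orange bar at the median. The medians are 8.51 for adipocytes, 2.12 for macrophages, 0.03 for endothelium and -2.08 for proliferation.

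Markers of other cells that can carry these proteins were measured in the same libraries. Several defining endothelial genes were at or near 0, with 1 fragment of Pecam1 in each library, 13 and 2 fragments of Cdh5, and Tie1 and Cldn5 listed at 0. The summed FPKM of the 11 endothelial markers was 5.48 at D0 and 5.80 at D7, most of it from Flt1 (3.75 and 3.05). Of the 8 above 0 in both libraries, 2 were higher and 2 lower (18.5% and 13.2% over all such genes), and 4 were within 2.0-fold. The higher ones, in the direction of Cd34, were Tek (0.520 FPKM at D0 and 1.62 at D7) and Kdr (0.3003 and 0.655). The part of endothelial cells in the values of Cd34, Eng and Vcam1 was not tested.

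Of 11 macrophage markers, 10 were higher at D7 and 1 was within 2.0-fold, and none was at 0. Over all genes above 0 in both, 18.5% were higher. Their summed FPKM was 156 at D0 and 584 at D7, with Emr1 (the gene of F4/80) at 1.40 and 14.3 and Ptprc at 0.331 and 1.51. They moved in the same direction as Cd34 and Nt5e and against the 4 lower markers, and their part in the values of the markers was not tested. Lymphoid markers summed to 0.0811 at D0 and 0.189 at D7, with 6 of 9 listed at 0 in both. Of 6 erythroid genes 5 were listed at 0 in both. Of 6 mesothelial genes only Krt19 reached an FPKM of 1 (6.31 and 1.88).

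Mural markers, which include Mcam and Cspg4 of the sort markers, summed to 2294 at D0 and 392 at D7, most of it from Acta2 (2164 and 319), which activated stromal cells also express. Of the 9, 3 were lower and 2 higher, beside 13.2% and 18.5% over all genes above 0 in both. As 4 of the ratios were above 1, the list had no common direction. Of 14 genes of proliferation 13 were lower, with a median log2 difference of -2.08 and a summed FPKM of 153 at D0 and 54.9 at D7. These genes and Acta2 moved with Thy1, Cd24a, Cd44 and Vcam1, and whether they had a part in those values was not tested.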

How the data were processed

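RNA-Seq was available for 1 library per stage. According to the methods of the study, mRNA was fragmented, the second strand was degraded, and libraries were sequenced on an Illumina HiSeq. The authors removed duplicate and rRNA reads, aligned the rest to mm10 with SOAP2 (the submitters' processing notes name Bowtie2), and deposited an FPKM value for each gene in each library. Use of strand in counting is not given in the sources used here. No column was left unmatched to a library.

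Ratios of D7 to D0 were taken on deposited values. Numbers of fragments were recovered from 600 single-exon genes in GENCODE M21, in which 100% of 79 (D0) and 90 (D7) values under or at 20 fragments lay within 0.1 of a whole number (17.3% and 26.4% with shuffled lengths). The library size and length correction used were those that made this share highest. Both were kept for the shuffled lengths, so the shares are not like for like. Fragment numbers are approximate for genes with several transcripts. The limit for a value of 0 was 3 fragments. List medians used a pseudocount of 0.1, which understates changes of low genes. On simulated data with counting error only, 200 of 200 genes changed by 4.0-fold and 2 of 11054 unchanged genes were called. These genes had an FPKM of at least 1 at D0 and no spread between cultures was simulated. The simulation therefore gives no error rate for the calls made here. The members, lists and alternatives were chosen with earlier results of these data known. All 10 markers are named. Partners are named only where FPKM reached 1 in a library, or where a listing at 0, under 1 or on few fragments is reported. Not every partner that reached 1 is named, so those named are a choice. The alternatives were TPM, median-ratio, upper-quartile, trimmed-mean and library-median scaling, pseudocounts, thresholds of 4.0 and 1.5, a filter at FPKM of 1 and, added after seeing the data, ribosomal scaling. Tools were Python 3.11.15 with pandas 2.3.3, numpy 2.4.6, scipy 1.17.1 and, for figures, matplotlib 3.10.9, and BLAST 2.17.0 for shared sequence.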

Additional observations from a re-analysis of the deposited data

How the results depend on the processing

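Cd34 and Nt5e were at least 2.0-fold higher, and Cd24a and Cd44 at least 2.0-fold lower, under each scaling and pseudocount tried. The number of lower markers was 4 as deposited, 2 with a threshold of 4.0-fold, 6 with a threshold of 1.5-fold, 6 with library-median scaling (Eng and Dpp4 were added) and 2 with scaling to the ribosomal genes. The number of higher markers was 2, or 3 with a threshold of 1.5-fold or ribosomal scaling (Pi16 was added). The shares over all genes above 0 in both moved too. Lower genes were 13.2% as deposited, 21.7% with library-median and 4.32% with ribosomal scaling, and higher genes were 18.5%, 13.4% and 46.0%. Shares at the other thresholds were not computed. Ribosomal scaling also brought the median log2 difference of the 10 markers from -0.72 to 0.0073, since it adds 0.90 to every log2 ratio. Under all other settings that median ran from -1.003 (library median) to -0.63 (pseudocount of 1). The ratios of Eng and Ly6a crossed 1 only with ribosomal scaling. Which scaling fits these cells was not tested. Low fragment numbers limit Dpp4, Pi16 and the D0 value of Nt5e. No paired analysis was possible because each stage has 1 library, and for the same reason no library could be left out.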
